A study of Homo sapiens with 12 samples.

Results

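The genes described here encode the plasma membrane and lysosomal carriers of amino acids and of closely related small molecules. They were all rows of the deposited count table whose symbol names a numbered member of the SLC1, SLC3, SLC6, SLC7, SLC36, SLC38 or SLC43 families, apart from 1 SLC7 gene that was not analysed here. The rule took 58 of the 25369 genes in the table, and it used no measured value. RNA was sequenced as poly(A)+ libraries from 3 established human carcinoma cell lines, RKO from colon and A549 and H460 from lung. Cells were kept in normoxia or in an atmosphere of 1% O2 for 24 h (hypoxia), with 2 independent replicates in each of the 6 groups of line and oxygen and 12 libraries in all. RKO and A549 cells grew in DMEM and H460 cells in RPMI, both with serum, so for any difference between H460 and the other lines the line and its medium cannot be told apart. No line was genetically altered, and each stands for 1 line of its tissue.

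Amino acid carriers decide which amino acids a cell can take up, release or move out of its lysosomes. Some are pumps that use the sodium gradient to concentrate their substrate, such as the SLC1, SLC6 and most SLC38 proteins. Others are exchangers that trade one amino acid for another, such as the light chains of the SLC7 family, which reach the cell surface only when bound to a heavy chain of the SLC3 family. In tumour cells the exchangers and the glutamine carriers are known for feeding growth signalling through mTORC1 at the lysosome, and several carrier genes are known targets of ATF4, the transcription factor that responds to amino acid shortage.

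The summed counts were between 27350424 and 41757584 reads per library. The response to hypoxia was present in every line: CA9, which encodes a carbonic anhydrase induced by low oxygen, rose in H460 with a log2 fold change of 6.81 ± 0.28, adjusted p = 3.43e-09. For A549 the value was 5.65 ± 0.37, adjusted p = 8.76e-04, and for RKO 4.45 ± 0.31, adjusted p = 3.74e-05. NDRG1 and VEGFA, a stress-response gene and an angiogenic growth factor, also rose in all 3 lines. The tissue labels were only partly borne out by marker genes. Of 6 colon markers, CDX2 alone was detected in RKO, at 4.10 to 7.14 RPKM over the 4 libraries, while CDX1, VIL1 and CEACAM5 had 0 reads there. Of 6 lung markers, NAPSA was at 2.49 to 3.38 RPKM in A549 and the surfactant genes SFTPA1, SFTPB and SFTPC were at or near 0 in both lung lines. Of 9 markers of other cells, the T cell marker CD3E had 0 reads in all libraries, and the leukocyte marker PTPRC was at most 0.0117 RPKM. Not all of the 9 were absent: 2 passed the low-count filter given below in RKO, 2 in A549 and 4 in H460. Of the 6 lung markers, 1 passed it in A549 and 2 in H460.

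In each line a good part of the carrier genes was below the low-count filter. A gene was kept when it passed (over 0.5 CPM, a count scaled to library size, in at least 2 of the line's 4 libraries), and 24 of the 58 members could be tested in RKO, 30 of them in A549 and 29 in the H460 line. There were 23 members tested in all 3 lines, 2 in 2 lines and 10 in 1 line. The other 23 were tested in none, never exceeded 34 reads in a library, and 8 of them had 0 reads in all 12 libraries, which allows up to 3 reads per library. These untested genes included the glutamate carriers SLC1A2, SLC1A6 and SLC1A7, the cationic carriers SLC7A3, SLC7A4 and SLC7A14, and the light chains SLC7A10 and SLC7A13. SLC7A10 was not silent in A549, with 13 and 11 reads in normoxia and 10 and 34 reads in hypoxia. They also included SLC36A2, SLC36A3, SLC38A8 and SLC38A11. Among SLC6 genes, the epithelial and brush border amino acid carriers SLC6A14, SLC6A18, SLC6A19 and SLC6A20 and the glycine carrier SLC6A5 of neurons were below the filter. So were the carriers of neurotransmitters SLC6A2, SLC6A3, SLC6A4, SLC6A11 and SLC6A13.

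In normoxia a small number of carriers held most of the transcript level. Levels of different genes are compared here only as RPKM, reads scaled to gene length and library size. The 5 highest members held 84.0% of the members' summed mean RPKM in A549, 66.1% in H460 and 59.1% in RKO. In RKO these were SLC38A5 (106 ± 19.7 RPKM, mean ± SD, n = 2 as for all values here), SLC1A5 (92.2 ± 4.81), SLC38A1 (75.2 ± 4.62), SLC7A5 (70.2 ± 1.06) and SLC3A2 (65.4 ± 0.907). The libraries of SLC38A5 and SLC1A5 overlapped, and those of the next 3 genes were apart by little. In A549 the order was SLC7A5 (451 ± 63.2), SLC3A2 (336 ± 61.9), SLC1A5 (107 ± 34.2), SLC38A2 (104 ± 40.2) and SLC38A10 (39.7 ± 0.292). SLC7A5 and SLC3A2, the subunits of the leucine exchanger LAT1, stood above all other carriers in both A549 libraries, while SLC1A5 and SLC38A2 overlapped. In H460 the highest were SLC3A2 (193 ± 20.3), SLC38A2 (181 ± 9.29), SLC7A5 (172 ± 21.0), SLC1A5 (133 ± 5.18) and SLC38A1 (79.2 ± 0.629). The glutamine carrier SLC1A5 and both LAT1 subunits were thus among the 5 highest in every line.

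**Figure D1:**
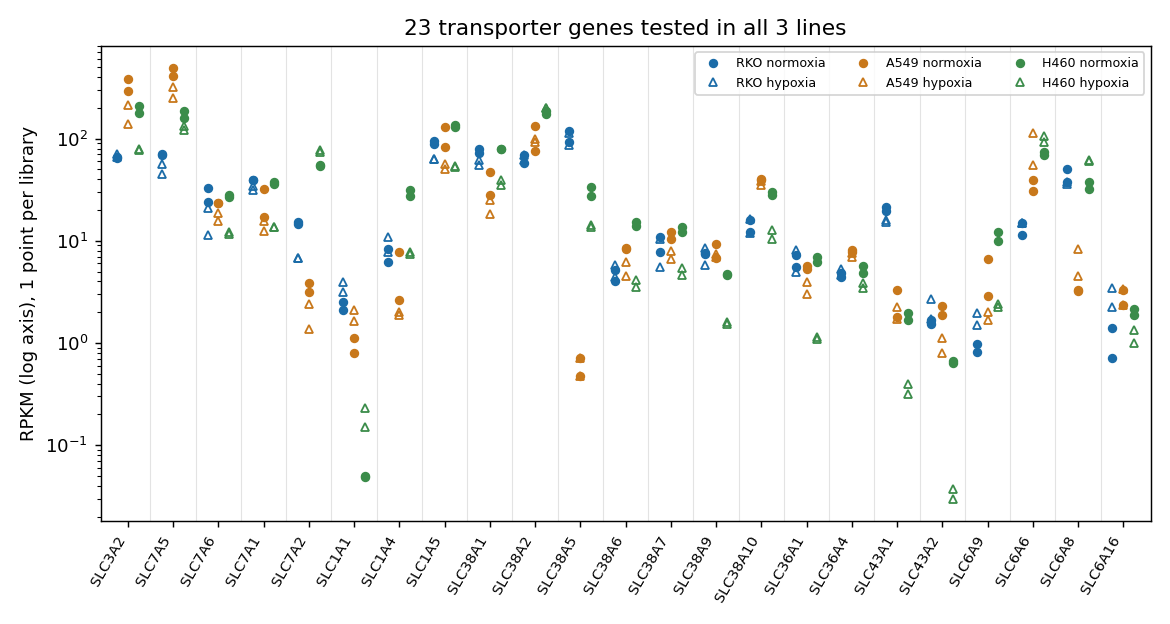
RPKM (log axis) of the 23 carrier genes tested in all 3 lines, with 1 point per library; filled circles are normoxia, open triangles hypoxia, and colours mark the line. SLC7A5 and SLC3A2 are highest in A549, SLC38A5 is near 1 RPKM in A549 against 106 RPKM on average in RKO normoxia, and the open triangles of H460 lie below its filled circles for most genes.

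The lines differed in which carriers they expressed in normoxia. In a joint fit of all 12 libraries, 27 of the 35 members tested in any line (77.1%) differed between RKO and A549 in normoxia, against 60.2% of all genes. Of these 27, 8 were higher in RKO (26% of all genes were) and 19 in A549 (34.1%). RKO differed from H460 in 21 members, against 61.9% of all genes, with 5 higher in RKO (27.2%) and 16 in H460 (34.7%). For the pair of lung lines the count was 28, against 52.1% of all genes, with 12 higher in A549 (26.9%) and 16 in H460 (25.2%). Of the 35 members, 10 were tested in 1 line only and passed the low-count filter of the joint fit through that line. Such a gene was low in the other lines by the filter, so its difference between lines was largely set in advance. All genes of the joint fit include such genes too. SLC38A5, a system N carrier of glutamine, was higher in RKO than in A549 (log2 difference 7.47 ± 0.26, adjusted p = 6.63e-12) and than in H460 (1.77 ± 0.19, adjusted p = 1.49e-06). The creatine carrier SLC6A8 was low in A549, where it differed from RKO by a log2 difference, RKO minus A549, of 3.72 ± 0.25, adjusted p = 7.09e-09. SLC7A2, an arginine carrier, was highest in H460 (RKO minus H460 -1.90 ± 0.20, adjusted p = 9.71e-07; A549 minus H460 -3.97 ± 0.22, adjusted p = 1.47e-09). SLC7A5 was lower in RKO than in A549 (-2.69 ± 0.19, adjusted p = 1.40e-08) and than in H460 (-1.33 ± 0.18, adjusted p = 1.60e-05).

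A few carriers were nearly private to 1 line by their read counts. SLC6A7, the proline carrier, had 278 and 512 reads in normoxia and 1093 and 1261 reads in hypoxia in H460, and at most 7 reads per library elsewhere. SLC7A7, a light chain that exports cationic amino acids, had 317 and 383 reads in normoxia and 286 and 267 reads in hypoxia in A549 and at most 16 reads in a library of the other lines. SLC6A17, a vesicular neutral amino acid carrier, had 221 and 238 reads in normoxia and 241 and 159 reads in hypoxia in A549 and at most 1 read elsewhere. All 3 of these patterns were the same in both oxygen conditions, since every library of the expressing line was far above every library of the others.

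The question put by the design is how each line's transcriptome changed after 24 h of hypoxia, and for the carriers the number of calls differed by line. Such counts also depend on precision: the median standard error over all genes was 0.11 in H460, 0.18 in RKO and 0.22 in A549. A gene called in 1 line and not in another need not differ between them, and the interaction test for that is given below. A gene was called at an adjusted p below 0.1 (edgeR's quasi-likelihood F test, Benjamini-Hochberg over all genes of the line) together with a fold change above 1.5. The fits for these calls held no term for the replicate number. With the replicate number as a block more A549 members were called, as given below. In RKO 3 members rose and 3 fell, of 24 tested, where 18.8% of all genes tested rose and 15.1% fell. In A549 2 members rose and 0 fell, of 30 tested, where 2.22% of all genes rose and 0.456% fell. In H460 6 members rose and 18 fell, of 29 tested, where 24.6% of all genes rose and 27.3% fell. The share of members that fell in H460 was 62.1%. In either direction 25% of the tested members were called in RKO, 6.67% in A549 and 82.8% in H460, beside 33.9%, 2.67% and 51.9% of all genes. Members had a median log2 fold change of -0.07 in RKO, beside 0.01 over all genes. In A549 the medians were -0.17 and -0.01, and in H460 -0.96 and -0.04.

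The low-count filter bears on 6 of these calls. In H460 SLC1A1 and SLC38A4 passed the filter through the hypoxia libraries alone, and SLC38A3, SLC43A2 and SLC7A8 through the normoxia libraries alone, as did SLC43A3 in RKO through hypoxia. Such a gene had to differ between conditions to be tested at all. Without them, 4 members rose and 15 fell of 24 in H460, and 2 rose and 3 fell of 23 in RKO. Changes are relative to TMM scaling, which sets the bulk of genes near 0. Scaling by library size alone moved the median of all genes in H460 by -0.35 on the log2 scale, and there SLC6A6 and SLC7A2 no longer passed the fold threshold. Every fallen member kept its direction and its call, but such a shift makes falls larger, so this is no test of the falls.

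**Figure D2:**
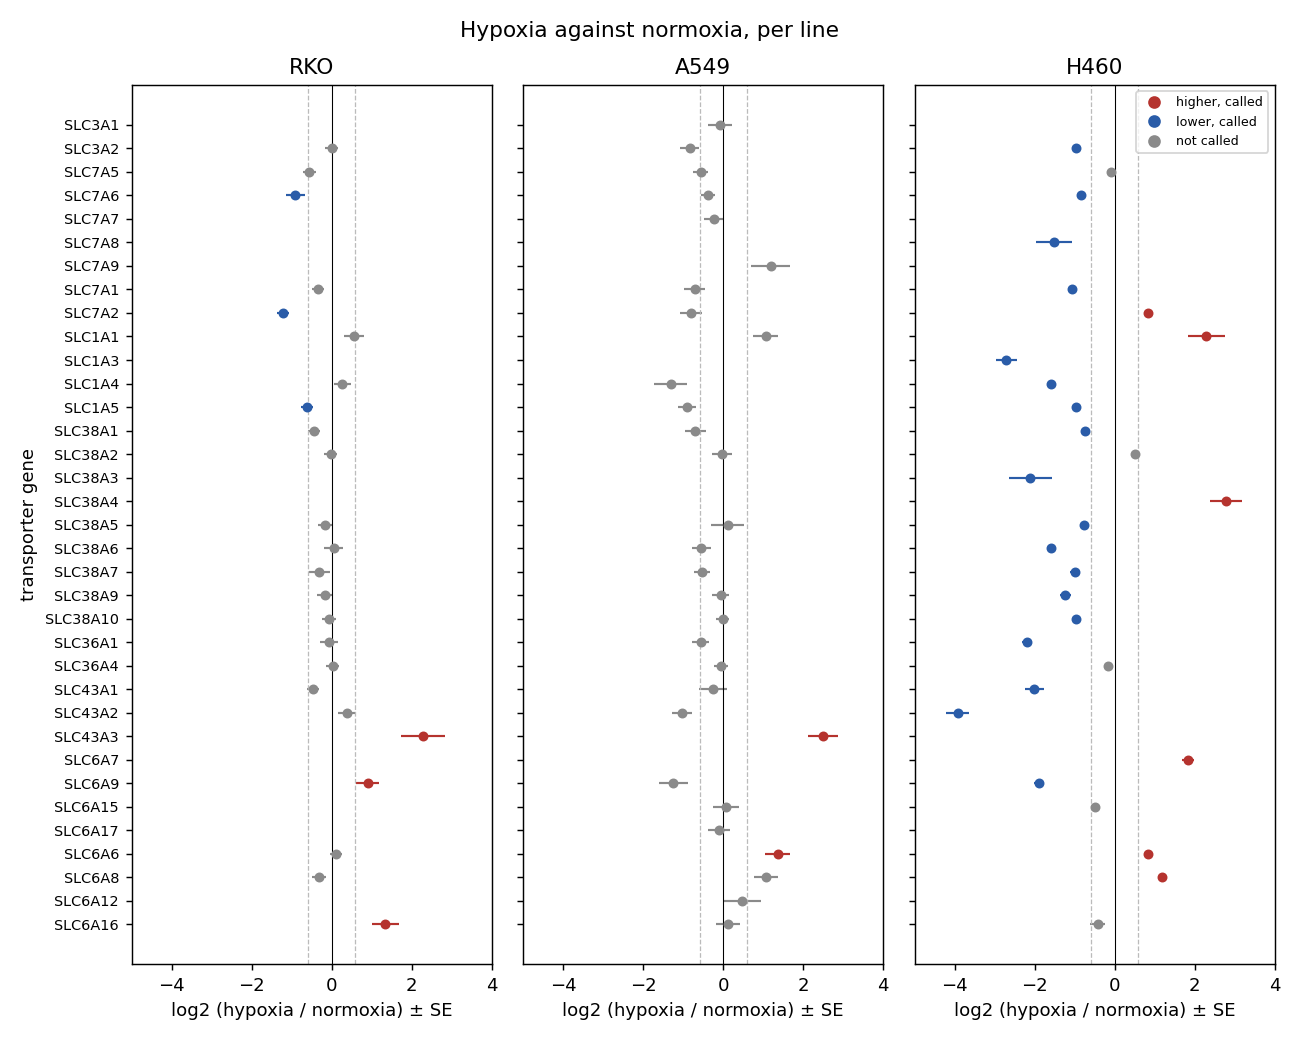
Log2 fold change of hypoxia over normoxia (horizontal axis, ± SE) for the 35 carrier genes tested in at least 1 line, in order of role; red and blue points passed both thresholds and dashed lines mark the 1.5-fold limit. Most H460 points are blue and lie left of 0, most RKO and A549 points are gray, and SLC7A2 and SLC6A9 are coloured oppositely in RKO and H460.

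In H460 the hypoxia and normoxia libraries did not overlap for 28 of 29 members, as for 86.4% of all genes tested in that line. The corresponding counts were 13 of 24 in RKO, beside 70.3% of all genes, and 18 of 30 in A549, beside 49.7%. The members' summed share of all reads was lower in hypoxia in each line. It was 0.317% and 0.328% in the normoxia libraries of RKO and 0.260% and 0.281% in hypoxia. In A549 it was 0.465% and 0.605% against 0.403% and 0.377%, and in H460 0.574% and 0.545% against 0.433% and 0.424%. By this share of unscaled counts, the hypoxia libraries were lower without overlap in all 3 lines, although A549 normoxia replicate 2 stood well above replicate 1. The share takes no account of TMM scaling, the scaling behind the fold changes here. In H460 the TMM factors were 1.12 and 1.14 in normoxia and 0.866 and 0.904 in hypoxia. With them the summed values of the H460 conditions overlap, so the lower share there depends on the scaling.

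The heavy chain SLC3A2, also known as CD98 or 4F2hc, carries several SLC7 light chains to the cell surface. Its gene lies at chr11:62623484-62656355 on the plus strand (GRCh37). In H460 it read 539.6 and 455 CPM in normoxia and 257 and 253 CPM in hypoxia (TMM-scaled, as all CPM here). Both hypoxia libraries were about equal and well below normoxia, a fall of 1.95-fold (log2 fold change -0.97 ± 0.10, SE here and throughout, adjusted p = 4.47e-06). In RKO the same gene read 201 and 190.1 CPM in normoxia and 208 and 181 CPM in hypoxia, and the conditions overlapped (log2 fold change -0.01 ± 0.15, adjusted p = 0.980). In A549 the values were 831 and 1057 CPM in normoxia and 632 and 419 CPM in hypoxia. The A549 hypoxia libraries were both lower but far apart, and the change was not called (log2 fold change -0.84 ± 0.23, adjusted p = 0.136). The hypoxia effect on SLC3A2 differed between lines in the joint fit (interaction adjusted p = 0.0149; RKO minus H460 1.01 ± 0.26 on the log2 scale). The other heavy chain, SLC3A1, was tested in A549 only and was not called there (log2 fold change -0.08 ± 0.30, adjusted p = 0.921).

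SLC7A5 is the LAT1 light chain, which brings leucine and other large neutral amino acids into the cell in exchange for glutamine, and its gene lies at chr16:87863629-87903100 on the minus strand (GRCh37). In H460 it read 760.4 and 626 CPM in normoxia and 692 and 610.2 CPM in hypoxia, with overlapping conditions and no call (log2 fold change -0.09 ± 0.11, adjusted p = 0.488). In RKO it read 338 and 319 CPM in normoxia and 254 and 192 CPM in hypoxia. Both RKO hypoxia libraries were lower and the adjusted p passed, but the fold of 1.47-fold did not reach the threshold (log2 fold change -0.56 ± 0.17, adjusted p = 0.0262). In A549, where its level was highest, the values were 1810.2 and 2161 CPM in normoxia and 1492 and 1189 CPM in hypoxia (log2 fold change -0.57 ± 0.20, adjusted p = 0.214). In all 3 lines the hypoxia mean of SLC7A5 was thus at or below the normoxia mean, with 0 calls.

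The balance of the 2 LAT1 transcripts moved in different directions. The ratio of SLC7A5 to SLC3A2 RPKM in H460 was 0.900 and 0.879 in normoxia and 1.72 and 1.54 in hypoxia. In RKO it was 1.07 and 1.07 in normoxia and 0.782 and 0.675 in hypoxia. In A549 it was 1.39 and 1.31 in normoxia and 1.51 and 1.81 in hypoxia. The conditions did not overlap in any line, the ratio being higher in hypoxia in H460 and A549 and lower in RKO. With 2 libraries against 2, an exact test of such a ratio cannot go below p = 0.333 (two-sided), and none was run. Pseudogene copies of SLC7A5 are in the table as SLC7A5P1 and SLC7A5P2, with at most 69 and 240 reads per library. Reads that map to several places were filtered by mapping quality, so what SLC7A5 lost to shared reads was not measured.

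The remaining light chains gave 2 genes with a call. SLC7A6, which exports cationic amino acids against neutral ones, read 161 and 211 CPM in normoxia and 72.9 and 125 CPM in hypoxia in RKO and fell there by 1.88-fold (log2 fold change -0.91 ± 0.24, adjusted p = 0.0121). In H460 it read 151 and 158 CPM in normoxia and 86.0 and 85.6 CPM in hypoxia, a fall of 1.80-fold (log2 fold change -0.85 ± 0.08, adjusted p = 2.57e-06). Normoxia and hypoxia were separate in both lines, with a wide spread between the RKO replicates and almost none in H460. In A549 SLC7A6 was not called (log2 fold change -0.38 ± 0.17, adjusted p = 0.305). SLC7A8, the LAT2 light chain, fell in H460 from 1.18 and 0.649 CPM in normoxia to 0.230 and 0.382 CPM in hypoxia (log2 fold change -1.51 ± 0.45, adjusted p = 0.0102), on 36 and 24 reads in normoxia and 6 and 12 reads in hypoxia. It passed the filter through normoxia only. SLC7A7 (log2 fold change -0.23 ± 0.26, adjusted p = 0.701) and SLC7A9 (log2 fold change 1.19 ± 0.49, adjusted p = 0.272) were tested in A549 only and were not called.

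The cationic carriers SLC7A1 and SLC7A2 import arginine, lysine and ornithine on their own, without a heavy chain. SLC7A2 moved in opposite directions. In RKO it read 126 and 116 CPM in normoxia and 53.9 and 50.0 CPM in hypoxia, a fall of 2.32-fold (log2 fold change -1.22 ± 0.15, adjusted p = 2.92e-04). In H460 it read 384 and 375 CPM in normoxia and 705 and 648 CPM in hypoxia, a rise of 1.78-fold (log2 fold change 0.83 ± 0.09, adjusted p = 7.29e-06). In each line the hypoxia libraries lay apart from normoxia by far more than the replicates differed. A549 had low values, 30.1 and 23.7 CPM in normoxia and 19.4 and 11.3 CPM in hypoxia, and no call (log2 fold change -0.80 ± 0.28, adjusted p = 0.214). The difference between the RKO and H460 effects was itself large (-2.01 ± 0.28 on the log2 scale, interaction adjusted p = 3.11e-04).

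SLC7A1, the broadly expressed cationic carrier, fell in H460 from 247 and 234 CPM in normoxia to 117 and 111 CPM in hypoxia (2.11-fold; log2 fold change -1.08 ± 0.09, adjusted p = 5.19e-07). In RKO the values were 301 and 295 CPM in normoxia and 254 and 217 CPM in hypoxia (log2 fold change -0.34 ± 0.15, adjusted p = 0.106) and in A549 123 and 226 CPM in normoxia and 117 and 95.2 CPM in hypoxia (log2 fold change -0.72 ± 0.27, adjusted p = 0.236), without a call in either line. In H460 hypoxia, 1 cationic carrier was therefore higher and the other lower.

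Members called in opposite directions in at least 2 lines numbered 2 of the 23 tested in all lines, where 2.86% of all genes so tested were. The second was SLC6A9, the glycine carrier GlyT1. It read 3.76 and 3.02 CPM in normoxia and 7.34 and 5.24 CPM in hypoxia in RKO and 40.5 and 32.1 CPM in normoxia and 9.57 and 9.88 CPM in hypoxia in H460. The RKO values were low and those in hypoxia higher (log2 fold change 0.89 ± 0.29, adjusted p = 0.0324), while in H460 the hypoxia libraries lay far below normoxia, a fall of 3.72-fold (log2 fold change -1.90 ± 0.13, adjusted p = 1.55e-07). In RKO the call of SLC6A9 was lost in 4 alternatives and kept in 11. Among the losses were the fits without normoxia replicate 2 and without hypoxia replicate 1. Its interaction passed (adjusted p = 9.08e-04; RKO minus H460 2.84 ± 0.45). No member was called in the same direction in all 3 lines, where 0.977% of all genes rose and 0.109% fell in all 3. With the replicate number as a block, SLC1A5 was called lower in all 3 lines. The share of all genes so called under the block is not given. In A549 the log2 fold change of SLC1A5 was -0.55 without normoxia replicate 2 and -1.18 without normoxia replicate 1. At least 1 line called 20 of the 23 members, beside 62.8% of all genes.

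**Figure D3:**
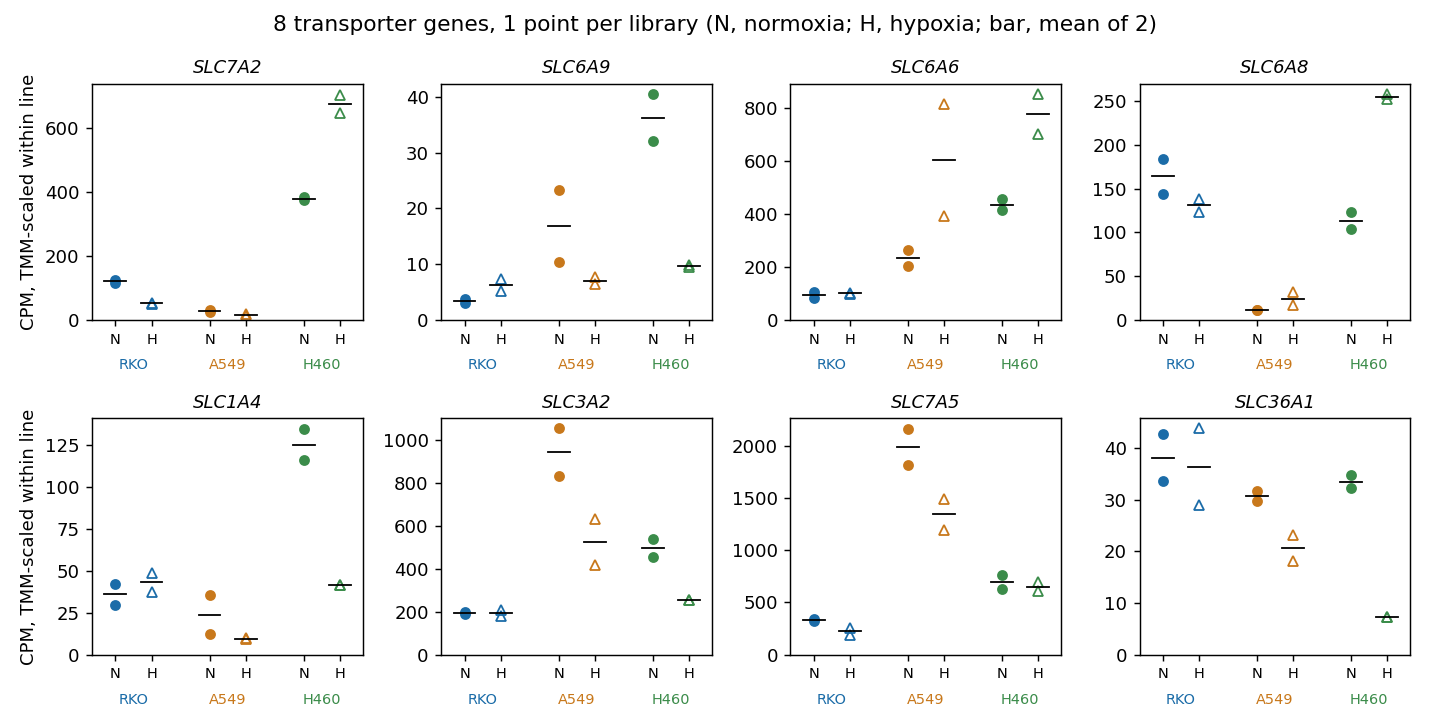
TMM-scaled CPM (linear axis from 0) of 8 carrier genes in each library, normoxia (N, filled circles) and hypoxia (H, open triangles) by line, with bars at the mean of the 2 libraries; the genes were picked after their values were seen. SLC7A2 is lower in RKO hypoxia and higher in H460 hypoxia, SLC6A9 the reverse, and SLC1A4, SLC3A2 and SLC36A1 are lower in H460 hypoxia with almost equal replicates.

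The SLC1 family joins the sodium-coupled glutamate carriers with the neutral exchangers ASCT1 and ASCT2. SLC1A5 (ASCT2), the main glutamine entry route in many tumour cells, read 298 and 310.1 CPM in normoxia and 202 and 191 CPM in hypoxia in RKO and fell there (log2 fold change -0.63 ± 0.15, adjusted p = 0.00739). With a fold of 1.55-fold, this call sits at the edge of the threshold and was lost in 6 of 15 alternatives, namely the joint fit, library size scaling, the 3 limma fits on RPKM and the fit without hypoxia replicate 2. In H460 the gene read 392 and 364 CPM in normoxia and 197 and 191 CPM in hypoxia and fell by 1.95-fold (log2 fold change -0.96 ± 0.09, adjusted p = 1.62e-06). In A549 it read 259 and 403 CPM in normoxia and 187 and 168 CPM in hypoxia. Both A549 hypoxia libraries were below both normoxia libraries, and the adjusted p just missed the threshold (log2 fold change -0.90 ± 0.23, adjusted p = 0.105).

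SLC1A4 (ASCT1), which exchanges alanine, serine and cysteine, fell in H460 from 134 and 116 CPM in normoxia to 41.4 and 41.3 CPM in hypoxia (3.03-fold; log2 fold change -1.60 ± 0.10, adjusted p = 5.12e-08). RKO read 41.9 and 29.9 CPM in normoxia and 37.5 and 48.7 CPM in hypoxia with overlapping conditions (log2 fold change 0.26 ± 0.21, adjusted p = 0.339), and its effect differed from that of H460 (interaction adjusted p = 0.0108). SLC1A3, the glial glutamate carrier EAAT1, was tested in H460 alone and fell from 4.48 and 4.43 CPM in normoxia to 0.536 and 0.797 CPM in hypoxia (6.56-fold; log2 fold change -2.71 ± 0.26, adjusted p = 2.19e-06). Both H460 hypoxia libraries were below 1 CPM.

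SLC1A1 (EAAT3), a carrier of glutamate, aspartate and cysteine, pointed the other way. H460 had 0.164 and 0.162 CPM in normoxia and 0.651 and 0.956 CPM in hypoxia, or 5 and 6 reads in normoxia and 17 and 30 reads in hypoxia, and the gene was called higher (log2 fold change 2.29 ± 0.46, adjusted p = 7.65e-04) after passing the filter through hypoxia only. RKO read 9.84 and 7.91 CPM in normoxia and 15.0 and 11.2 CPM in hypoxia (log2 fold change 0.56 ± 0.24, adjusted p = 0.0911) and A549 4.08 and 2.85 CPM in normoxia and 8.02 and 6.43 CPM in hypoxia (log2 fold change 1.06 ± 0.31, adjusted p = 0.150). In each line both hypoxia libraries were above both normoxia libraries, at levels that were low in H460 and modest elsewhere. The interaction adjusted p was 0.0574.

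The promoter windows of the 3 SLC1 genes that fell in H460 are shown because they hold TGATGCAA, the form of the C/EBP-ATF composite element searched here, on either strand. RefSeq promoter windows (GRCh38.p14, 250 bases before to 50 after a start) were found for 44 of the 58 members, and these 3 genes were the only members with a match, 6.82% of the 44, against 1.08% of all genes with a window. The match is in capitals, and the lines are stretches around it on the gene's strand. That of SLC1A3 lies at chr5:36596338-36596415 on the plus strand, with the match 220 bases before 1 of its 3 listed starts. That of SLC1A4 lies at chr2:64989352-64989399 on the plus strand, with the match, in reverse orientation, from 7 bases before 1 of its 2 listed starts. That of SLC1A5 lies at chr19:46784864-46784951 on the minus strand, 97 bases before 1 of its 3 listed starts.
SLC1A3: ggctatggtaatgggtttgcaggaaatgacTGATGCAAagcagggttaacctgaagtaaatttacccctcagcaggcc
SLC1A4: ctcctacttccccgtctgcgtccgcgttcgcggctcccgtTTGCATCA
SLC1A5: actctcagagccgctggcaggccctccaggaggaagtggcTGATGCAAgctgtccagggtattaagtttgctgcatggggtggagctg
These matches are a description of the letters in each window. In RKO hypoxia SLC1A5 fell and SLC1A4 did not pass the test, so genes that share the element were not called alike in every line.

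The SLC38 family holds sodium-coupled carriers of small neutral amino acids at the surface and members that sit in the lysosome. In H460, 7 of 9 tested SLC38 genes fell and 1 rose, beside 27.3% and 24.6% of all genes. The gene that rose, SLC38A4, passed the filter through hypoxia alone, and SLC38A3, among those that fell, through normoxia alone. Both had to differ between conditions to be tested. None of 7 was called in RKO, beside 33.9% of all genes, and none of 7 in A549, beside 2.67%, where SLC38A1 was called lower with the replicate number as a block. SLC38A1 (SNAT1) fell in H460 from 711 and 689 CPM in normoxia to 404 and 435 CPM in hypoxia (1.67-fold; log2 fold change -0.74 ± 0.09, adjusted p = 1.99e-05). In RKO it read 819 and 725 CPM in normoxia and 556 and 580.0 CPM in hypoxia, lower in both hypoxia libraries but under the fold threshold (log2 fold change -0.44 ± 0.16, adjusted p = 0.0494). SLC38A2 (SNAT2), the system A carrier known to be induced by amino acid shortage, behaved differently from its neighbour on chromosome 12. It read 761 and 801 CPM in normoxia and 1131 and 1089 CPM in hypoxia in H460, with both hypoxia libraries higher, and the fold of 1.42-fold stayed under the threshold (log2 fold change 0.51 ± 0.09, adjusted p = 4.54e-04). In RKO (log2 fold change -0.02 ± 0.16, adjusted p = 0.937) and A549 (log2 fold change -0.02 ± 0.25, adjusted p = 0.972) its conditions overlapped.

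The system N carrier SLC38A5 fell in H460 from 59.9 and 47.6 CPM in normoxia to 32.9 and 30.4 CPM in hypoxia (1.70-fold; log2 fold change -0.77 ± 0.12, adjusted p = 9.14e-05). In RKO, where it was the highest carrier by RPKM, it read 193 and 242 CPM in normoxia and 172 and 214 CPM in hypoxia and the conditions overlapped (log2 fold change -0.17 ± 0.18, adjusted p = 0.468). A second system N gene, SLC38A3, had 36 and 40 reads in normoxia and 1 and 14 reads in hypoxia in H460 and was called lower there (log2 fold change -2.11 ± 0.54, adjusted p = 0.00416). SLC38A4, a system A gene of liver, had 4 and 9 reads in normoxia and 38 and 39 reads in hypoxia and was called higher (log2 fold change 2.78 ± 0.41, adjusted p = 6.88e-05). Both were near the detection limit in 1 of the conditions, and each passed the filter through the other condition only.

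Of the other SLC38 genes, 4 fell in H460, among them 2 of the lysosome. SLC38A9, the lysosomal arginine sensor that signals to mTORC1, read 13.1 and 13.2 CPM in normoxia and 5.55 and 5.61 CPM in hypoxia (2.35-fold lower; log2 fold change -1.23 ± 0.14, adjusted p = 7.02e-06). SLC38A7, a lysosomal glutamine exporter, read 30.1 and 33.1 CPM in normoxia and 14.7 and 16.7 CPM in hypoxia (2.01-fold lower; log2 fold change -1.01 ± 0.11, adjusted p = 6.99e-06). SLC38A6 read 30.9 and 27.9 CPM in normoxia and 9.23 and 10.3 CPM in hypoxia (3.004-fold lower; log2 fold change -1.59 ± 0.12, adjusted p = 2.82e-07), and SLC38A10 139 and 126 CPM in normoxia and 62.1 and 72.5 CPM in hypoxia (1.97-fold lower; log2 fold change -0.98 ± 0.10, adjusted p = 3.27e-06). In all 4 genes the 2 H460 replicates of a condition were close and the conditions were far apart. In RKO and A549 none of the 4 was called, with log2 fold changes between -0.55 and 0.04. The interaction passed for SLC38A6 (adjusted p = 0.00140), SLC38A9 (0.00655), SLC38A10 (0.00466) and SLC38A5 (0.0791), and not for SLC38A7 (0.192).

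The SLC36 genes encode proton-coupled carriers of small neutral amino acids. SLC36A1 (PAT1), an exporter of the lysosome also known as a partner of the mTORC1 machinery, fell in H460 from 32.2 and 34.8 CPM in normoxia to 7.24 and 7.33 CPM in hypoxia, a change of 4.60-fold (log2 fold change -2.20 ± 0.12, adjusted p = 1.71e-08). It read 33.5 and 42.7 CPM in normoxia and 28.9 and 43.9 CPM in hypoxia in RKO and 29.7 and 31.7 CPM in normoxia and 23.2 and 18.2 CPM in hypoxia in A549. RKO values overlapped (log2 fold change -0.07 ± 0.22, adjusted p = 0.837), and A549 hypoxia values were lower without a call (log2 fold change -0.57 ± 0.21, adjusted p = 0.235). The normoxia levels did not differ past the threshold between any 2 lines, whereas the effects did (interaction adjusted p = 2.80e-04; RKO minus H460 2.18 ± 0.29). Its relative SLC36A4 was not called in RKO (log2 fold change 0.02 ± 0.17, adjusted p = 0.944), A549 (log2 fold change -0.05 ± 0.18, adjusted p = 0.911) or H460 (log2 fold change -0.16 ± 0.11, adjusted p = 0.191).

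The promoter of SLC36A1 is printed because this gene had the largest fall among members tested through both conditions other than SLC1A3, and because its window holds both forms of the hypoxia response element core searched here, ACGTG and GCGTG. The stretch is chr5:151447353-151447602 (GRCh38.p14, RefSeq), on the plus strand, the 250 bases before 1 of 2 listed starts, with matches on either strand in capitals.
SLC36A1: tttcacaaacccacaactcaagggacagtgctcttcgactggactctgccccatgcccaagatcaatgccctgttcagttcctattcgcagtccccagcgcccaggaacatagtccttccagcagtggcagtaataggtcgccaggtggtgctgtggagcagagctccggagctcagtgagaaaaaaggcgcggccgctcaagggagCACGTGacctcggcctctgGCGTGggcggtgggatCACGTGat
The ACGTG matches lie in 2 copies of the palindrome CACGTG, which is also the E-box of other factors. Over genes with a window, ACGTG was present in 18 of the 44 members (40.9%) and in 24.9% of all genes, GCGTG in 27 members (61.4%) and in 40.6% of all genes, and CACGTG in 10 members (22.7%) and in 8.77% of all genes. A window with the letters is no evidence of binding, and SLC36A1, which holds them, fell in H460 and was not called elsewhere.

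The SLC43 family has 3 members, of which SLC43A2 lies at chr17:1472548-1532180 on the minus strand (GRCh37). SLC43A1 (LAT3) and SLC43A2 (LAT4) let branched-chain amino acids and phenylalanine pass down their gradient, whereas SLC43A3 is known as a carrier of purine nucleobases. SLC43A2 had the largest fall of any member: in H460 it read 5.04 and 5.16 CPM in normoxia and 0.383 and 0.287 CPM in hypoxia, or 154 and 191 reads in normoxia and 10 and 9 reads in hypoxia (15.2-fold lower; log2 fold change -3.93 ± 0.28, adjusted p = 1.87e-07). It passed the filter through normoxia only. In RKO it read 14.1 and 15.1 CPM in normoxia and 15.3 and 22.6 CPM in hypoxia (log2 fold change 0.38 ± 0.23, adjusted p = 0.214) and in A549 19.7 and 15.9 CPM in normoxia and 10.1 and 7.34 CPM in hypoxia (log2 fold change -1.03 ± 0.26, adjusted p = 0.104). Hypoxia was higher in RKO and lower in A549, neither called, and the interaction passed (adjusted p = 3.36e-05).

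SLC43A1 fell in H460 from 4.68 and 3.89 CPM in normoxia to 0.957 and 1.15 CPM in hypoxia (4.03-fold; log2 fold change -2.01 ± 0.24, adjusted p = 1.39e-05). In RKO, where it was most abundant, it read 54.0 and 57.5 CPM in normoxia and 40.8 and 39.9 CPM in hypoxia, lower in both hypoxia libraries but under the fold threshold (log2 fold change -0.47 ± 0.16, adjusted p = 0.0361). In A549 the conditions overlapped (log2 fold change -0.26 ± 0.34, adjusted p = 0.745). The interaction adjusted p of SLC43A1 was 0.00693.

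SLC43A3 rose in A549, from 0.758 and 0.551 CPM in normoxia to 3.35 and 4.04 CPM in hypoxia (5.61-fold; log2 fold change 2.49 ± 0.37, adjusted p = 0.0155), and in RKO, from 0.146 and 0.192 CPM in normoxia to 1.08 and 0.592 CPM in hypoxia (4.87-fold; log2 fold change 2.29 ± 0.55, adjusted p = 0.00796). The RKO values rest on 5 and 7 reads in normoxia and 42 and 21 reads in hypoxia, and on the filter being passed in hypoxia. In H460 the gene had at most 3 reads in a library. It was the sole member called higher in both RKO and A549.

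The SLC6 family holds sodium- and chloride-coupled carriers, among them those of amino acids and those of taurine, creatine and osmolytes. Of the 3 SLC6 genes outside the amino acid carriers that were tested in H460, 2 rose, beside 24.6% of all genes, and SLC6A16 was not called. A rise in H460 was not limited to them, since amino acid carriers such as SLC6A7 and SLC7A2 also rose. SLC6A8, the creatine carrier, read 123 and 103 CPM in normoxia and 258 and 252 CPM in hypoxia in H460 and rose by 2.25-fold (log2 fold change 1.17 ± 0.10, adjusted p = 7.72e-07). SLC6A6, the taurine carrier, read 454 and 414 CPM in normoxia and 852 and 701 CPM in hypoxia and rose by 1.79-fold (log2 fold change 0.84 ± 0.11, adjusted p = 3.04e-05). In both genes the hypoxia libraries lay clear above normoxia. A pseudogene copy of the creatine carrier, SLC6A10P, had at most 59 reads in a library.

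In A549 SLC6A6 read 264 and 204 CPM in normoxia and 390.4 and 816 CPM in hypoxia and was called higher (log2 fold change 1.37 ± 0.31, adjusted p = 0.0824). The 2 hypoxia libraries were far apart, though both above normoxia, and the call was lost in 7 alternatives and kept in 8. Among the losses were the fits without normoxia replicate 2 (log2 fold change 1.19) and without hypoxia replicate 2 (0.74). SLC6A8 in A549 read 11.6 and 11.6 CPM in normoxia and 17.0 and 31.7 CPM in hypoxia, also higher with a wide spread, and was not called (log2 fold change 1.07 ± 0.30, adjusted p = 0.137). In RKO neither gene was called, with SLC6A6 at 0.11 ± 0.16 and SLC6A8 at -0.32 ± 0.17 on the log2 scale. The effects differed between lines for SLC6A6 (interaction adjusted p = 0.0476) and SLC6A8 (0.00458).

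Of the SLC6 amino acid carriers, SLC6A7, the proline carrier PROT, rose in H460 from 9.10 and 13.8 CPM in normoxia to 41.9 and 40.2 CPM in hypoxia (3.55-fold; log2 fold change 1.83 ± 0.16, adjusted p = 8.32e-07). Proline carriage is otherwise spread over several families, and this gene was expressed in H460 alone. SLC6A15, a carrier of branched-chain amino acids and proline, read 69.4 and 59.1 CPM in normoxia and 49.1 and 42.6 CPM in hypoxia in H460, lower in both hypoxia libraries and under the fold threshold (log2 fold change -0.49 ± 0.11, adjusted p = 0.00155), and was not called in A549 (log2 fold change 0.07 ± 0.33, adjusted p = 0.940). SLC6A17 and the betaine carrier SLC6A12 were not called in A549, at -0.11 ± 0.28 and 0.47 ± 0.47 on the log2 scale.

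SLC6A16, a member with no carrier function known with certainty, rose in RKO from 2.21 and 4.17 CPM in normoxia to 6.57 and 9.59 CPM in hypoxia (2.52-fold; log2 fold change 1.33 ± 0.34, adjusted p = 0.0109). Replicate 2 was the higher of the pair in both conditions, and the conditions did not overlap. It was not called in A549 (log2 fold change 0.11 ± 0.29, adjusted p = 0.883) or H460 (log2 fold change -0.43 ± 0.19, adjusted p = 0.0611), and its interaction passed (adjusted p = 0.0170).

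Over all 35 members tested in any line, the interaction of line and oxygen passed for 17 (48.6%), beside 48.8% of all genes in the joint fit, a share close to the background. SLC38A4, among the 17, passed the filter of the joint fit through H460 hypoxia alone, so it had to be high there to be tested. By pairs of lines, the effect differed for 7 members in RKO against A549 (14.6% of all genes did), for 17 in RKO against H460 (37.6%) and for 9 in A549 against H460 (36%). With the replicate number as a block within each line, 21 members passed (60.4% of all genes), the 17 and also SLC38A7 (adjusted p = 0.0482), SLC6A15 (0.0856), SLC7A5 (0.0954) and SLC7A6 (0.0307).

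The A549 replicates differed in a way that touched these genes. In normoxia 9 of 30 tested members were over 1.5-fold higher by RPKM in replicate 2 than in replicate 1, against 9.54% of all genes tested. SLC1A4 was at 2.63 and 7.70 RPKM in replicates 1 and 2, SLC6A9 at 2.86 and 6.59 RPKM and SLC7A1 at 17.2 and 32.1 RPKM. Of 17 genes on a list of the amino acid response driven by ATF4, 12 were over 1.5-fold higher in the same library, with a median ratio of replicate 2 to replicate 1 of 2.40. ASNS, the asparagine synthetase, was at 18.4 and 90.7 RPKM, and CHAC1, which degrades glutathione, at 1.62 and 16.9 RPKM. In A549 hypoxia the median ratio of that list was 0.972. Over the 30 tested members the median ratio in A549 normoxia was 1.16, beside 1.02 over all genes. The response list and a part of the carriers were thus high in the same library, and the part of either in the other was not tested.

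With the replicate number as a block in A549, which takes out only what both conditions of a replicate share, 5 members rose and 8 fell, beside 8.34% and 5.07% of all genes. The 8 were SLC1A4 (-1.13 ± 0.25, adjusted p = 0.00140), SLC1A5 (-0.87 ± 0.15, adjusted p = 8.10e-05), SLC38A1 (-0.67 ± 0.17, adjusted p = 0.00498), SLC3A2 (-0.86 ± 0.16, adjusted p = 2.23e-04), SLC43A2 (-1.04 ± 0.21, adjusted p = 4.54e-04), SLC6A9 (-1.14 ± 0.25, adjusted p = 0.00119), SLC7A1 (-0.66 ± 0.17, adjusted p = 0.00487) and SLC7A2 (-0.84 ± 0.19, adjusted p = 0.00186), all as log2 fold changes. Of these 8, 7 (87.5%) were among the 18 that fell in H460, 38.9% of that list, and SLC7A2, which rose in H460, was not. The 5 were SLC43A3 and SLC6A6, as without the block, and SLC1A1 (1.07 ± 0.25, adjusted p = 0.00267), SLC6A8 (1.00 ± 0.21, adjusted p = 9.24e-04) and SLC7A9 (1.19 ± 0.46, adjusted p = 0.0679).

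The lower A549 values of some of these genes rested on that 1 library. A fit without 1 library leaves 1 library in a group, so effect sizes alone are given. Without normoxia replicate 2, the log2 fold change was -0.36 for SLC1A4, -0.55 for SLC6A9 and -0.22 for SLC7A1. Without normoxia replicate 1, these 3 genes were at -1.88, -1.72 and -1.09. Without normoxia replicate 2, SLC1A5 was at -0.55, SLC38A1 at -0.30 and SLC3A2 at -0.66. Without normoxia replicate 1, SLC1A5 was at -1.18, SLC38A1 at -1.01 and SLC3A2 at -1.01. The other way went SLC43A2, at -1.17 without normoxia replicate 2 and -0.86 without normoxia replicate 1. So did SLC7A2, at -0.97 and -0.62. Without hypoxia replicate 1, SLC1A4, SLC6A9 and SLC7A1 were at -1.35, -1.38 and -0.88, and without hypoxia replicate 2 at -1.29, -1.14 and -0.58.

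**Figure D4:**
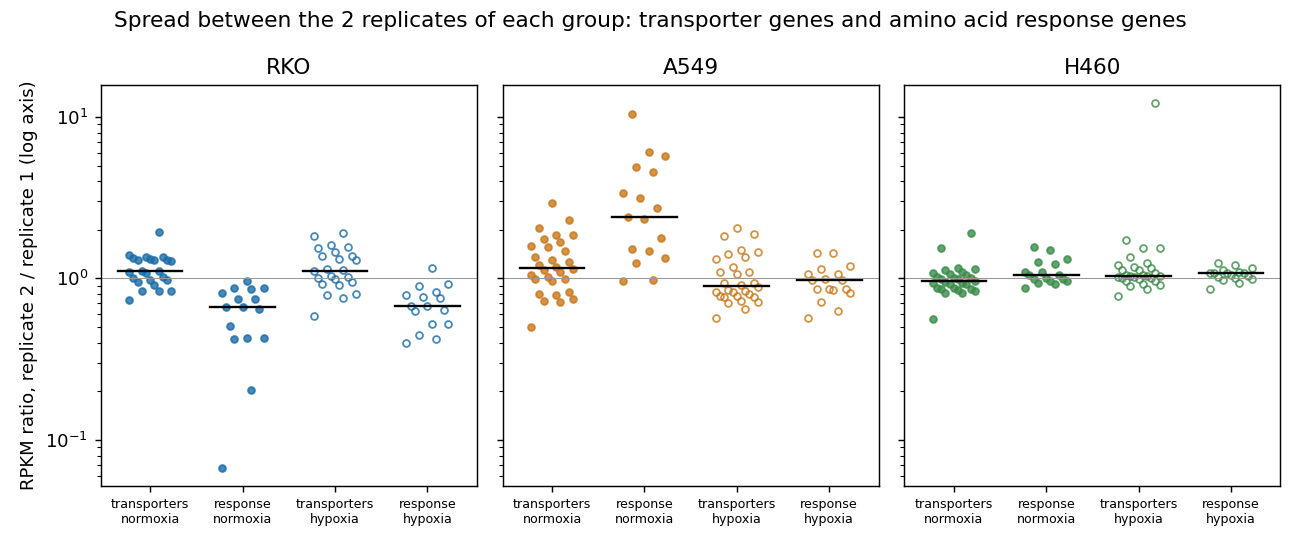
Ratio of replicate 2 to replicate 1 by RPKM (log axis) for the tested carrier genes and the amino acid response genes of each group, with 1 point per gene and a bar at the median. The response genes of A549 normoxia have a median of 2.40, and the carriers there a median of 1.16 with values up to 2.93. Response genes of RKO have medians of 0.665 in normoxia and 0.676 in hypoxia, and H460 medians are near 1.

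In RKO the replicates differed too, and the amino acid response list was lower in replicate 2 in both conditions, with median ratios of 0.665 and 0.676. The medians of the tested carriers there were 1.11 and 1.12. SLC7A6 in RKO hypoxia was at 11.4 and 20.9 RPKM, and its call was lost in 2 alternatives and kept in 13. Among the losses was the fit without hypoxia replicate 1 (log2 fold change -0.53, under the fold threshold). In H460 the medians were between 0.965 and 1.07 for both sets.

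The response list itself was called differently by line. Of its tested genes, 5 of 16 rose and 1 fell in RKO, beside 18.8% and 15.1% of all genes. In A549 0 of 17 rose and 2 fell, beside 2.22% and 0.456%, and in H460 4 of 17 rose and 6 fell, beside 24.6% and 27.3%. CHAC1 fell in H460 (-1.05 ± 0.10, adjusted p = 1.27e-06) and in A549 (-3.77 ± 0.88, adjusted p = 0.0868). PPP1R15A, which restores translation after stress, rose in H460 (1.80 ± 0.11, adjusted p = 7.32e-08), and PSAT1, of serine synthesis, fell in H460 (-1.69 ± 0.10, adjusted p = 5.31e-08) and A549 (-1.70 ± 0.37, adjusted p = 0.0725). The stress-induced transcription factor gene ATF3 was higher in H460 (1.14 ± 0.15, adjusted p = 2.84e-05), and so it was in RKO (2.02 ± 0.55, adjusted p = 0.0151).

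The mTORC1 genes that read amino acid supply downstream of the carriers were measured as a list of 28. In H460 12 rose and 5 fell of 28, beside 24.6% and 27.3% of all genes. In RKO 5 rose and 3 fell of 27, beside 18.8% and 15.1%, and in A549 0 of 28 were called, beside 2.67%. In H460 the genes that rose included RRAGD, a Rag GTPase (0.906 and 0.920 RPKM in normoxia and 8.56 and 7.01 RPKM in hypoxia, log2 fold change 3.45 ± 0.15, adjusted p = 3.98e-09) and FNIP1, a partner of folliculin (1.75 ± 0.12, adjusted p = 1.62e-07). C7orf60, which encodes a sensor of S-adenosylmethionine, rose in H460 (2.50 ± 0.16, adjusted p = 7.43e-08) and RKO (0.78 ± 0.25, adjusted p = 0.0306), as did GATSL3, which encodes the arginine sensor CASTOR1 (2.32 ± 0.11, adjusted p = 1.002e-08 and 0.84 ± 0.29, adjusted p = 0.0422). The median log2 fold change of this list in H460 was 0.33, where that of the carriers was -0.96.

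Carriers of amino acids outside the 7 families were a list of 12. In H460 2 of 7 tested rose and 2 fell, beside 24.6% and 27.3% of all genes, in RKO 2 of 8 rose, beside 18.8%, and in A549 0 of 6 were called, beside 2.67%. SLC17A7, a vesicular glutamate carrier, rose in H460 (3.17 ± 0.33, adjusted p = 3.84e-06) and RKO (2.25 ± 0.36, adjusted p = 0.00103) from at most 0.205 RPKM in normoxia. SLC16A10, a carrier of aromatic amino acids, fell in H460 (-2.27 ± 0.46, adjusted p = 8.11e-04), MFSD12, of cysteine import into lysosomes and melanosomes, rose in H460 (1.94 ± 0.11, adjusted p = 3.55e-08), and the peptide carrier SLC15A2 rose in RKO (1.65 ± 0.35, adjusted p = 0.00427). Of 5 genes for partner proteins of the carriers, 2 of 3 tested rose in H460, beside 24.6% of all genes, and none of 2 in RKO or of 3 in A549, beside 18.8% and 2.22%. They were NEDD4L, a ubiquitin ligase that acts on membrane carriers (1.76 ± 0.09, adjusted p = 1.20e-08), and TMEM27, which helps SLC6 carriers to the surface in kidney (1.09 ± 0.35, adjusted p = 0.0147).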

How the data were processed

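Strand-specific poly(A)+ libraries of the 12 samples gave single-end reads. These were, by the submitters' processing notes, aligned with TopHat2 2.0.13 and Bowtie2 2.2.3.0 to GRCh37 (hg19) and counted per gene with HTSeq 0.6.1, using strand. The authors deposited a raw count per gene and library, and an RPKM value that equals the count scaled to gene length and to the library's summed counts. Genes of opposite strand that overlap a member (CCDC24 at SLC6A9, GRIP2 at SLC6A6, SLC7A6OS at SLC7A6) are therefore kept apart. Reads that map to several places were filtered by mapping quality. Deposited starts were shifted by 1 base to 1-based positions. The deposited tables hold 0 sample columns that were left unused, and 1 SLC7 gene and 1 further gene are not reported here by name.

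Each line's 4 libraries were fitted with edgeR 4.0.16 in R 4.3.3 (TMM scaling, quasi-likelihood F test, Benjamini-Hochberg over all genes tested). The joint fit of 12 libraries gave the line pairs and the interaction, which passed at an adjusted p under 0.1. SE is the log2 fold change over the root of F. Depth ranged from 27350424 to 41757584 counts, and over genes the median SE came to 0.11 in H460, 0.18 in RKO and 0.22 in A549. The thresholds on adjusted p and fold change are those of the study, which used DESeq2. Alternatives were DESeq2 1.42.0, other scalings and filters, limma 3.58.1 on log2(RPKM + 0.1) and log2(RPKM + 1), a replicate block and leaving out each library. The filter on a mean over 1 CPM was chosen after seeing the data.

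The members and gene lists were chosen with earlier results of these data known. Members that were called or passed the interaction are named, as are the 5 highest per line in normoxia and up to 4 called genes of each other list. ASNS was named after its values were seen. The labels call the replicates independent and do not say what a replicate number shares. Deviations of same-numbered samples correlated at 0.339 in RKO, 0.343 in A549 and 0.115 in H460, all over 0.1. The numbers may therefore pair the samples. The main calls and counts come from fits without a replicate block, and blocked values are given as an alternative. A blocked fit of a line's 4 libraries leaves few degrees of freedom for the spread. No 2 libraries of a group agreed within sampling noise. The fits were tested on simulated data. Promoter windows were RefSeq's (GRCh38.p14). Windows for the members without an entry, among them SLC43A3, SLC6A6, SLC7A4, SLC6A2, SLC38A3, SLC7A3, SLC3A1, SLC1A2, SLC7A13, SLC7A2, SLC6A3, SLC6A15 and SLC6A12, were not used here.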

Additional observations from a re-analysis of the deposited data

Results flagged for a closer look

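The interaction test picked out 17 members whose hypoxia effect differed between lines at an adjusted p under 0.1 in the joint fit. For each, the largest difference among the line pairs that passed is given, as the log2 effect in the first line minus that in the second, ± SE. For the effect in RKO minus that in H460, the values were 4.35 ± 0.41 for SLC43A2, 2.84 ± 0.45 for SLC6A9, 2.18 ± 0.29 for SLC36A1 and 1.91 ± 0.47 for SLC1A4. They were 1.81 ± 0.46 for SLC6A16, 1.68 ± 0.28 for SLC38A6 and 1.01 ± 0.26 for SLC3A2. In all of these the effect in RKO was above that in H460. Differences of the other sign, RKO below H460, were -2.01 ± 0.28 for SLC7A2, -1.45 ± 0.31 for SLC6A8, -1.69 ± 0.54 for SLC1A1 and -2.33 ± 0.97 for SLC38A4.

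For the effect in A549 minus that in H460, the values were 1.75 ± 0.40 for SLC43A1, 1.17 ± 0.27 for SLC38A9, 0.97 ± 0.22 for SLC38A10 and 0.86 ± 0.35 for SLC38A5. SLC6A6 differed between RKO and A549 by -1.22 ± 0.37, RKO being lower. SLC7A7 had 4.798 ± 1.204 for RKO minus H460, but on 0 and 1 reads in normoxia and 4 and 2 reads in hypoxia in RKO and 12 and 16 reads in normoxia and 1 and 3 reads in hypoxia in H460, so its fitted value depends on the prior count. SLC38A4 likewise had few reads. It passed the filter of the joint fit only through the 2 H460 hypoxia libraries, where it was high, so its difference is no test of a line effect. No group here has the 4 samples that a test for single far-off samples needs.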

How the results depend on the processing

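No call of a single member reversed under any alternative. Of 348 values over the H460 calls, 332 kept direction and call and 16 lost the call. The same counts were 72 and 15 in RKO, and 22 and 8 in A549. In RKO, limma on log2(RPKM + 1) gave 1 member higher, and without a filter 0 higher and 1 lower. In H460, limma on log2(RPKM + 1) gave 2 members higher with and without the filter. The pseudocount shrinks the fold of low genes, and the RPKM values carry no TMM scaling. In H460 limma on log2(RPKM + 1) moved the median of all genes by -0.33. The part of each in these counts was not tested. Leaving out 1 library at a time gave 2 to 3 members higher and 3 to 4 lower in RKO, and 4 to 6 higher and 15 to 19 lower in H460. The interaction count, 17, was between 14 and 19 with 1 library left out, 21 with the replicate block, 22 to 24 with limma and 14 to 19 under the other settings.

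The A549 counts, 2 higher and 0 lower, moved with the setting. They were 4 and 5 without the low-count filter, 4 and 6 with DESeq2, 4 and 8 in the joint fit, and 5 and 8 with the replicate block. The count higher was 1 with library size alone, at an adjusted p under 0.05, and with limma at either pseudocount, and 0 with limma without a filter. Leaving out 1 library gave 1 to 3 higher and 1 to 9 lower, the libraries being named in the report. The cause of these moves was not tested. The block changed no other call of a member in RKO or H460, left 21 and 28 called between H460 and RKO and between H460 and A549, and gave 28 in place of 27 between RKO and A549. At an unadjusted p under 0.05, 5 A549 members were higher and 12 lower in edgeR. The counts under these alternatives are given without the share of all genes, so they do not set the members apart from other genes.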
